A study of Mus musculus with 9 samples.

Results

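The genes described here are 10 receptors through which mediators of inflammation act on cells: the prostaglandin E2 receptor genes Ptger1, Ptger3 and Ptger4, the prostacyclin receptor gene Ptgir, the lysophosphatidic acid receptor genes Lpar1 and Lpar3, the sphingosine-1-phosphate receptor genes S1pr1 and S1pr3, the bradykinin B2 receptor gene Bdkrb2 and the angiotensin II receptor gene Agtr1a. They were chosen by name from the 21536 genes of the count table, and all 10 are in it. The study used Drop-seq, which captures single cells in droplets with barcoded beads, on cells of the trigeminal ganglion, taken from FVB/N mice that were wild type, 3 to 6 weeks old per the labels (the study's methods give a narrower range for these mice), and carried no transgene and had no treatment. Mice of both sexes were pooled for a run, and neurons were enriched on a Percoll gradient and by glial depletion. The 9 runs were deposited as 1 table whose barcodes name no run, so the table is 1 sample and no test between samples was possible. The values below are counts and shares with exact 95% intervals (Poisson for levels, Clopper-Pearson for shares), which cover counting error only. Where no UMI was seen, the limit given is the level or share that 3 counts would give, not the upper end of an interval.

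The table holds 6997 barcodes and 30491529 unique molecular identifiers (UMIs, counts of captured mRNA molecules), with 1000 to 190815 UMIs in a barcode. Of these barcodes, 3855 were taken as neurons because they had 500 to 7500 genes, a UMI of at least 3 of the 6 neuronal genes Tubb3, Scn9a, Snap25, Nefl, Nefm and Uchl1, and none of the epithelial gene Epcam. Neurons had a median of 3014 UMIs, and the neuronal genes were seen in 76.5% (Scn9a) to 97% (Uchl1) of them. The rest of the table holds other cells, among them 561 erythroid-like and 340 pituitary-like barcodes. They were put in the first of 7 groups whose rule they met: 244 Trpm8 neurons (2 UMIs or more), 379 Mrgprd neurons (2 or more), 49 Mrgpra3 neurons (1 or more), 57 Nppb neurons (2 or more), 320 Cd34 neurons (1 or more), 450 Nefh neurons (5 or more, with no Trpv1) and 916 Calca/Trpv1 neurons (5 or more of Calca and at least 1 of Trpv1). The remaining 1440 met no rule and were shallower, with a median of 1826.5 UMIs against 3406 to 5835.5 in the groups, and 349 neurons met more than 1 rule. Levels are given as UMIs of the gene per 1000000 UMIs (CPM) over all cells of a group, and "other neurons" are all neurons outside the group, those without a group included.

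All 10 genes encode receptors with 7 membrane-spanning helices that signal through G proteins. In sensory neurons such receptors are known for lowering the threshold of the channels that respond to heat and irritants: tissue injury releases prostaglandins, bradykinin and lipid mediators, receptors coupled to Gs raise cyclic AMP, and receptors coupled to Gq activate phospholipase C and protein kinase C. Trigeminal sensory neurons that carry them innervate the face, the eyes, the mouth and the meninges. The groups have known counterparts: Trpm8 marks cold sensors, Calca and Trpv1 mark peptidergic nociceptors, Mrgprd marks non-peptidergic nociceptors of the skin, Nppb and Mrgpra3 mark itch neurons, Nefh marks large myelinated neurons, and Cd34 was used here for neurons related to low-threshold C fibres.

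Lpar3, Agtr1a and, at a low level, Ptger3 were highest in Mrgprd neurons, while Ptger1, Ptger4, Ptgir, S1pr3 and Lpar1 were high in Calca/Trpv1 neurons. S1pr1 and Lpar1 stood high in Nppb neurons, and Bdkrb2 had 7 UMIs in all. Of the 8 receptors with at least 100 UMIs in neurons, 7 had a level at least 3 times that of other neurons in some group, where 10.4% of all 10772 genes with that many UMIs did. The receptors include genes that the study had picked to display on these cells, so this count is no independent evidence. Agtr1a and Ptger3 also had fewer than 100 UMIs outside Mrgprd neurons, so they passed the minimum only through the group where they were high, and nothing is read from the count. S1pr1 and Bdkrb2, with 78 and 7 UMIs, fell below the minimum and are described by their counts.

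**Figure D1:**
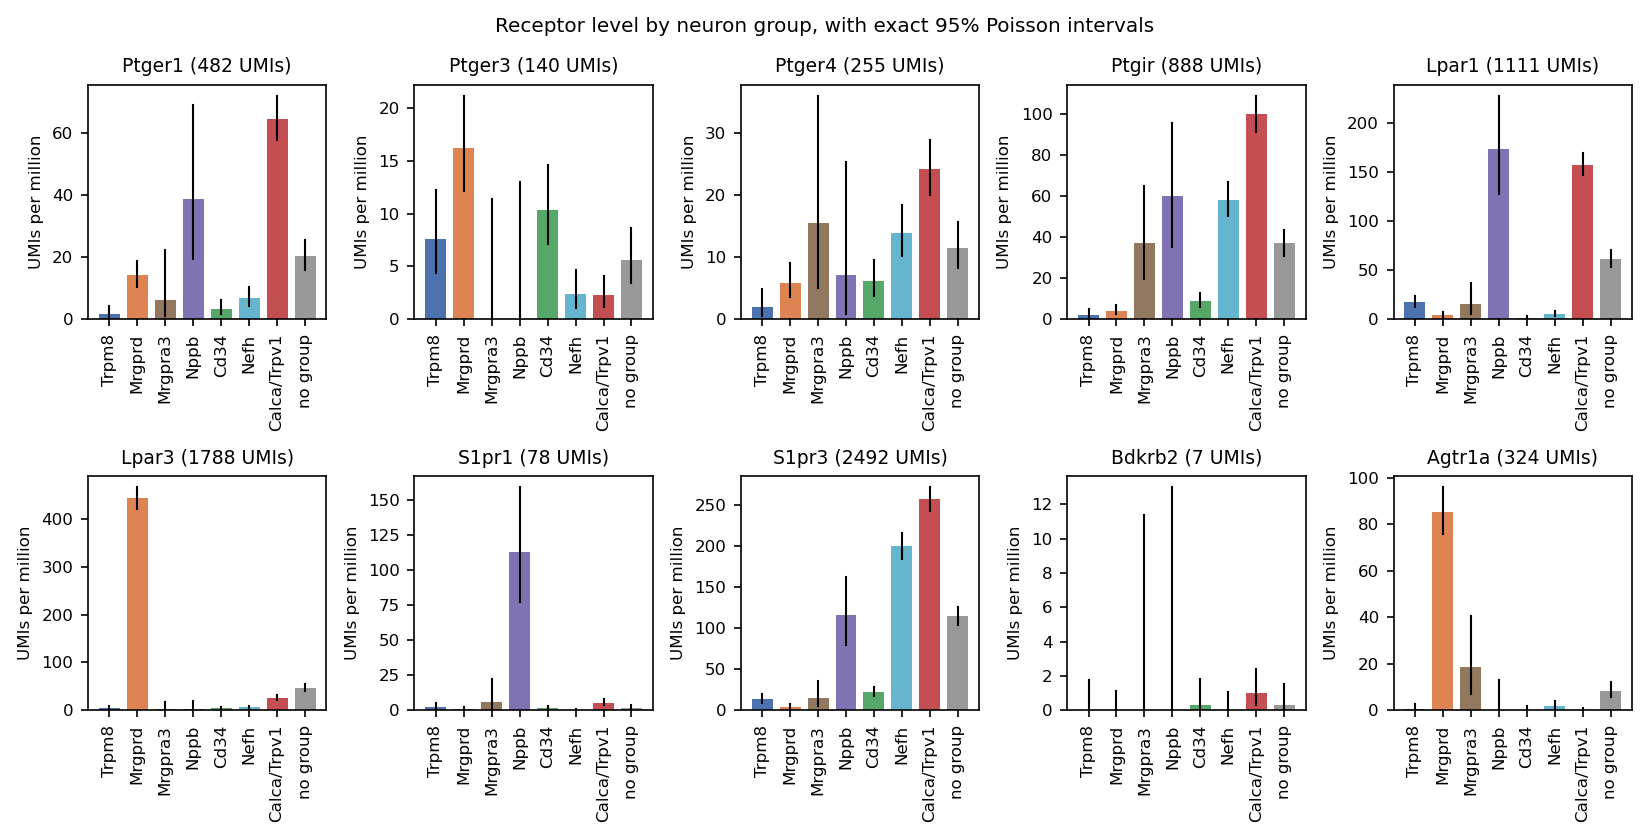
Level of each receptor (y axis, CPM, with its own scale in each panel) in the 7 neuron groups and in neurons of no group (x axis); bars are the level over all cells of the group and lines are exact 95% Poisson intervals. Lpar3 and Agtr1a stand high in the Mrgprd group, at 443 and 85.3, S1pr1 in the Nppb group at 113, and S1pr3 in the Calca/Trpv1 and Nefh groups at 257 and 200.

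Because Ptgir and S1pr3 were high in the same groups and Lpar3 was high in another, the 250 bases before the RefSeq transcription start of these 3 genes are shown (build GRCm38.p6, 5′ to 3′ on the gene's strand, all plus), with the GC box GGGCGG in capitals on either strand.
Ptgir, chr7:16906240-16906489: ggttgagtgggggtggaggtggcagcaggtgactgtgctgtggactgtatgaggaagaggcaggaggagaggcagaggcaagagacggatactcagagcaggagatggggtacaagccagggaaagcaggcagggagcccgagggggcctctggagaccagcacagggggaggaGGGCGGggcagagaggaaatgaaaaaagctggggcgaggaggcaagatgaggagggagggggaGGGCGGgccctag
S1pr3, chr13:51408368-51408617: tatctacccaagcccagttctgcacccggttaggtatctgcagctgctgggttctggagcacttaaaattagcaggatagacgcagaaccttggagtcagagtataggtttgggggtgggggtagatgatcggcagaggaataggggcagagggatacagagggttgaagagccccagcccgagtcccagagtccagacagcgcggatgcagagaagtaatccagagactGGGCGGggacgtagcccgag
Lpar3, chr3:146220711-146220960: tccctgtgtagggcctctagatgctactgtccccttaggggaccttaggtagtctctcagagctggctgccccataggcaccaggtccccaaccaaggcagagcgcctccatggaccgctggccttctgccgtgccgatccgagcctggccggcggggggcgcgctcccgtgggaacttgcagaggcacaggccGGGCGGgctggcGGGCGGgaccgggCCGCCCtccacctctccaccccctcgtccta
The GC box occurred 2 times in Ptgir, 1 time in S1pr3 and 3 times in Lpar3, and 32.7% of 32851 promoters of this length held it. A RUNX motif, searched on both strands as TGTGGT, was in none of these 3 windows and in 14% of all promoters. The same held for the half-site of the cyclic AMP response element, searched as TGACG and present in 17.8% of promoters. It also held for the sequence of the TATA box, searched as TATAAA and present in 12.4% of promoters. Among windows of other receptors that were searched, the GC box occurred 4 times in Ptger4, 3 times in Ptger3 and not in Bdkrb2. Of 3 Lpar1 windows, 1 held the RUNX motif and no GC box, and the others held the GC box 1 time each. The starts used for S1pr3, Ptger3 and Bdkrb2 were not found in a GENCODE transcript, so their windows are less certain. GC content was 63.6% in Ptgir, 56.4% in S1pr3 and 69.6% in Lpar3. Promoters of 7 of the 10 receptors were in the table used, without Ptger1, S1pr1 and Agtr1a.

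At least 1 UMI of any of the 10 receptors was found in 53.2% of neurons (51.6 to 54.8), and 570 neurons had UMIs of 2 of them and 340 of 3 or more. The share was 85.8% in Mrgprd neurons, 82.5% in Nppb neurons and 80.3% in Calca/Trpv1 neurons. It was 53.1% in Nefh, 42.9% in Mrgpra3, 24.4% in Cd34 and 23.8% in Trpm8 neurons, and 38.1% in neurons of no group. Because deeper cells show more genes, each cell was also thinned to 1000 UMIs. The share was then 27.4% over all neurons, with 45.4% in Calca/Trpv1, 42.1% in Nppb, 38.5% in Mrgprd, 21.8% in Nefh, 20.4% in Mrgpra3, 4.92% in Trpm8 and 4.06% in Cd34 neurons. Erythroid-like barcodes, which should lack these receptors and had a median of 1368 UMIs, gave 4.28% unthinned and 2.5% thinned, and the thinned intervals of the Trpm8 (2.57 to 8.43) and Cd34 (2.18 to 6.85) groups overlap that of the erythroid-like barcodes (1.37 to 4.15).

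Of the prostaglandin E2 receptors, Ptger1 and Ptger4 were highest in Calca/Trpv1 neurons and Ptger3 in Mrgprd neurons. Ptger1, the Gq-linked receptor (GRCm38 chromosome 8, 83666678 to 83672753, plus strand), had 482 UMIs, of which 315 were in Calca/Trpv1 neurons. Its level there was 64.7 CPM (57.7 to 72.2) with a UMI in 23.8% of cells. The next group was Nppb at 38.7 CPM (19.3 to 69.3), whose interval overlaps that of Calca/Trpv1, and then came Mrgprd at 14.1, Nefh at 6.77, Mrgpra3 at 6.19, Cd34 at 3.23 and Trpm8 at 1.41. Over other neurons (10.4 CPM) the Calca/Trpv1 level was 6.22-fold higher, a log2 ratio of 2.64 (2.36 to 2.92). The sources used here do not state whether counting used strand, and the Ptger1 values are uncertain to that extent.

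Ptger3, which couples mainly to Gi (chromosome 3, 157566892 to 157645888, plus strand), was sparse at 140 UMIs. Its highest level was 16.2 CPM (12.1 to 21.2) in Mrgprd neurons, with a UMI in 11.9% of cells, against 4.93 CPM in other neurons, which is 3.29-fold. Cd34 neurons had 10.3 CPM (7.07 to 14.6) and Trpm8 neurons 7.54 (4.31 to 12.2), and neighbours in this order had overlapping intervals. It was the one receptor of the 8 that was not at least 3 times lower in Trpm8 neurons. Nefh and Calca/Trpv1 neurons were at 2.36 and 2.26 CPM. No UMI was seen in 49 Mrgpra3 neurons, which allows a share of up to 6.12%, or in 57 Nppb neurons, which allows up to 5.26%. Without neurons that held a UMI of any of 5 glial genes, the log2 ratio went from 1.72 to 1.39, below the limit of 3 times. It was higher with cells thinned to 1000 UMIs, at 3.61, which rests on 14 neurons that kept a UMI, and as a mean over cells, at 2.34.

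Ptger4, the Gs-linked receptor (chromosome 15, 5206661 to 5244187, minus strand), had 255 UMIs. It was highest in Calca/Trpv1 neurons at 24.2 CPM (20.1 to 29), with a UMI in 10% of cells, against 8.53 CPM in other neurons. At 2.84-fold it did not reach 3 times in any group. Mrgpra3 neurons were at 15.5 CPM (5.02 to 36.1) and Nefh neurons at 13.8 (10.2 to 18.4), and the lowest were Mrgprd at 5.81 and Trpm8 at 1.89. Its 3′ end lies inside Ttc33 on the opposite strand, which had 1814 UMIs and a flatter profile, from 66.9 CPM in Mrgprd to 119 in Calca/Trpv1 neurons. Without knowledge of strand, reads of Ptger4 and Ttc33 cannot be told apart there.

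Ptgir, the prostacyclin receptor, also linked to Gs (chromosome 7, 16906490 to 16910905, plus strand), had 888 UMIs in 484 neurons. Its level was 100 CPM (91.3 to 109) in Calca/Trpv1 neurons, with a UMI in 29% of cells, and 25 CPM in other neurons, a 4-fold ratio. Nppb neurons at 59.9 CPM (34.9 to 95.8), Nefh neurons at 58 (50.2 to 66.7) and Mrgpra3 neurons at 37.1 (19.2 to 64.9) came next, these 3 intervals overlap, and that of Nppb reaches that of Calca/Trpv1. Cd34, Mrgprd and Trpm8 neurons were lowest at 8.72, 3.97 and 1.89 CPM. The single cell with most Ptgir held 20 UMIs. With each cell thinned to 1000 UMIs the log2 ratio was 1.54, and as a mean over cells it was 1.56, both just short of 3 times.

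The lysophosphatidic acid receptors had different leading groups. Lpar3 (chromosome 3, 146220963 to 146286186, plus strand) had 1788 UMIs, and 1449 of them (81%) were in Mrgprd neurons, which held 15.6% of all neuronal UMIs. In that group 75.2% of cells (70.5 to 79.5) had a UMI, up to 37 in a cell, and the level was 443 CPM (420 to 466) against 19.2 in other neurons, 23.1-fold. Calca/Trpv1 neurons came next at 26.5 CPM (22.1 to 31.5), and the other 5 groups were between 3.09 and 5.89 with overlapping intervals. Neurons of no group were at 46.3 CPM, and 7.64% of those carried a UMI of Mrgprd, too few for the rule. When only neurons that met 1 rule kept a group, the log2 ratio of Lpar3 went from 4.53 to 3.25. All 3855 neurons stayed in this setting, so Mrgprd neurons that met a second rule were counted among the other neurons. This can lower the ratio by itself, and a weaker enrichment in neurons of 1 rule cannot be read from it.

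Lpar1, a receptor also known from myelinating cells (chromosome 4, 58435255 to 58553898, minus strand), had 1111 UMIs. It was at 173 CPM (128 to 228) in Nppb neurons, where 47.4% of cells had a UMI, and at 157 CPM (147 to 169) in Calca/Trpv1 neurons, where 33.3% did. The order of these groups cannot be told from the counts, since the intervals overlap. All other groups were far below: 17 CPM in Trpm8, 15.5 in Mrgpra3, 5.3 in Nefh, 4.28 in Mrgprd and 1.29 in Cd34 neurons. The Nppb level was 3.35 times that of other neurons (51.5 CPM), which include the Calca/Trpv1 group, and the Calca/Trpv1 level was 7.35 times that of the neurons outside it. The log2 ratio of Nppb neurons, 1.75, was 1.16 with cells thinned to 1000 UMIs, 1.53 without neurons that held glial UMIs and 1.58 as a mean over cells, all below 3 times.

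Neurons of no group held Lpar1 at 61.2 CPM, and here markers of another cell type moved with it. Of these 1440 neurons, 57 had UMIs of at least 3 of the 6 oligodendrocyte markers Mog, Mobp, Mag, Cldn11, Opalin and Ermn, and they held 93 of the 218 Lpar1 UMIs, at 434 CPM. Without them the level was 37.3 CPM. Enpp2, which encodes the enzyme autotaxin that makes lysophosphatidic acid, was at 3654 CPM in those 57 barcodes and at 26 CPM in the rest. The part of oligodendrocyte RNA in the remaining Lpar1 level was not tested.

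S1pr3 (chromosome 13, 51408639 to 51422797, plus strand), which couples to several G proteins, had 2492 UMIs in 968 neurons. Calca/Trpv1 neurons were highest at 257 CPM (243 to 272), with a UMI in 51.3% of cells, and Nefh neurons followed at 200 CPM (185 to 216) with 39.8%. These intervals do not overlap. Nppb neurons were at 116 CPM (80 to 163), Cd34 at 22.6, Mrgpra3 at 15.5, Trpm8 at 13.7 and Mrgprd at 4.28. The Calca/Trpv1 level was 3.34 times that of other neurons (77.1 CPM), and this log2 ratio of 1.74 went below 3 times with thinned cells (1.44), with marker minimums raised by 1 UMI (1.49) and as a mean over cells (1.42).

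S1pr1, a Gi-linked receptor (chromosome 3, 115710433 to 115715072, minus strand), had 78 UMIs, of which 32 were in the 57 Nppb neurons, which held 1.36% of neuronal UMIs. In that group 40.4% of cells (27.6 to 54.2) had a UMI and the level was 113 CPM (77.1 to 159) against 2.23 CPM in other neurons, a ratio of 50.6. The next groups were Mrgpra3 at 6.19 CPM (0.749 to 22.4) and Calca/Trpv1 at 5.34 (3.49 to 7.82), and none was seen in 450 Nefh neurons, which allows a share of up to 0.667%. S1pr1 is also a gene of endothelial cells and B cells. None of the 6 endothelial markers had a UMI in the 23 Nppb neurons that held S1pr1, and of the 5 precursor B markers 4 were at 0 there. The fifth, Ebf1, was seen in 17 of these 23 neurons and in 24 of the 34 Nppb neurons without S1pr1.

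Bdkrb2, the constitutive bradykinin receptor (chromosome 12, 105563226 to 105595237, plus strand), was all but undetected. Its 7 UMIs were in 7 neurons, 0.182% of all, with 5 in Calca/Trpv1 neurons, 1 in Cd34 neurons and 1 in a neuron of no group. The ratio of Calca/Trpv1 to other neurons was 8.24, with a log2 interval of 0.43 to 6.44. No UMI was seen in 561 erythroid-like barcodes, which allows a share of up to 0.535%. The share was 0.546% (0.177 to 1.27) in Calca/Trpv1 neurons, and at this depth the counts are too few to set it apart from those barcodes. The inducible bradykinin receptor gene Bdkrb1 had no UMI in 3855 neurons, which allows a share of up to 0.0778%.

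Agtr1a, the angiotensin II receptor linked to Gq (chromosome 13, 30336441 to 30382867, plus strand), had 324 UMIs, of which 279 (86.1%) were in Mrgprd neurons. A UMI was found in 41.4% of that group (36.4 to 46.6), and the level was 85.3 CPM (75.6 to 95.9) against 2.55 in other neurons, 33.5-fold. Mrgpra3 neurons came next at 18.6 CPM (6.81 to 40.4) from 6 UMIs. The shares in Nefh (1.33%), Trpm8 (0.41%), Cd34 (0.312%) and Calca/Trpv1 (0.109%) neurons were all below the 1.6% (0.736 to 3.02) of erythroid-like barcodes, and are not read as expression. The levels were 9.75 CPM in erythroid-like barcodes and 0.205 CPM in Calca/Trpv1 neurons. No UMI was seen in 57 Nppb neurons, which allows a share of up to 5.26%. The log2 ratio of 5.06 went to 3.33 when only neurons that met 1 rule kept a group. Mrgprd neurons that met a second rule then counted among the other neurons, which can lower the ratio by itself, as for Lpar3. Agtr1b, a near-identical copy on chromosome 3, had 118 UMIs and another order, with 34 CPM in Mrgpra3, 11.5 in Calca/Trpv1 and 2.45 in Mrgprd neurons, and reads shared between the copies could be split or lost in counting.

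The counts of receptors called in each group are descriptions. Ptger3 and Agtr1a passed the minimum only through Mrgprd neurons, which favours a higher call there and lower calls of both in other groups. In Mrgprd neurons 3 of the 8 tested receptors were at least 3 times higher than in other neurons (Ptger3, Lpar3 and Agtr1a), where 2.16% of all genes were, and 3 were at least 3 times lower (Ptgir, Lpar1 and S1pr3), where 9.82% were. In Calca/Trpv1 neurons 4 were higher (Ptger1, Ptgir, Lpar1 and S1pr3; 1.92% of all genes) and 3 lower (Ptger3, Lpar3 and Agtr1a; 4.72%). Nppb neurons had Lpar1 (1.41% of all genes). No tested receptor reached 3 times in Trpm8 (1.13% of all genes), Mrgpra3 (1.54%), Cd34 (1.49%) or Nefh neurons (1.99%). Trpm8 neurons had 7 of the 8 at least 3 times lower, where 8.02% of all genes were, Cd34 neurons had 6 (6.12%), and Nefh neurons had 5 (3.98%). No lower calls were made in the 49 Mrgpra3 and 57 Nppb neurons, whose UMIs were too few for them. The Trpm8 and Cd34 groups had the highest median depths of the 7, 5671 and 5835.5 UMIs.

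The receptors also differed within groups. Calca/Trpv1 neurons were split by a UMI of Trpa1, the irritant channel, into 437 with and 479 without. Lpar1 was at 240 CPM (222 to 259) with Trpa1 and at 53.7 without, a log2 ratio of 2.16 (1.88 to 2.46), and Lpar3 was at 41.7 against 7.4, a log2 ratio of 2.49 (1.73 to 3.35). Ptgir and S1pr3 went the other way, at 69.4 against 138 CPM (log2 interval −1.27 to −0.73) and at 187 against 346 CPM (−0.89, −1.05 to −0.72). Ptger1 did not separate them, with 64.6 and 64.8 CPM and a log2 interval of −0.33 to 0.33, and Ptger4 had an interval of −0.48 to 0.62. The neurons with Trpa1 were deeper, with a median of 4319 against 3091 UMIs.

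A split of the same group by Kit, a growth factor receptor, gave 358 neurons with a UMI and 558 without. Ptger4 was at 34 against 14.2 CPM (log2 ratio 1.26, 0.67 to 1.88), Ptgir at 128 against 70.9 (0.85, 0.58 to 1.13) and S1pr3 at 322 against 191 (0.76, 0.59 to 0.93). The cells with Kit were deeper, with a median of 4734 against 2990 UMIs, and the thinned shares were 3.91% against 1.79% for Ptger4, 9.22% against 7.71% for Ptgir and 24.6% against 19% for S1pr3. Lpar1 was lower with Kit, at 108 against 209 CPM (−0.96, −1.18 to −0.74). For Ptger1 the interval, −0.09 to 0.57, held 0. Neurons with Sstr2 (116) had less Ptgir than those without (−0.78, −1.23 to −0.36), and neurons with Fam150b (99) had more (0.53, 0.22 to 0.82). Neurons with Sstr2 or Fam150b were deeper, with medians of 5454 against 3374 and 7666 against 3305 UMIs.

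**Figure D2:**
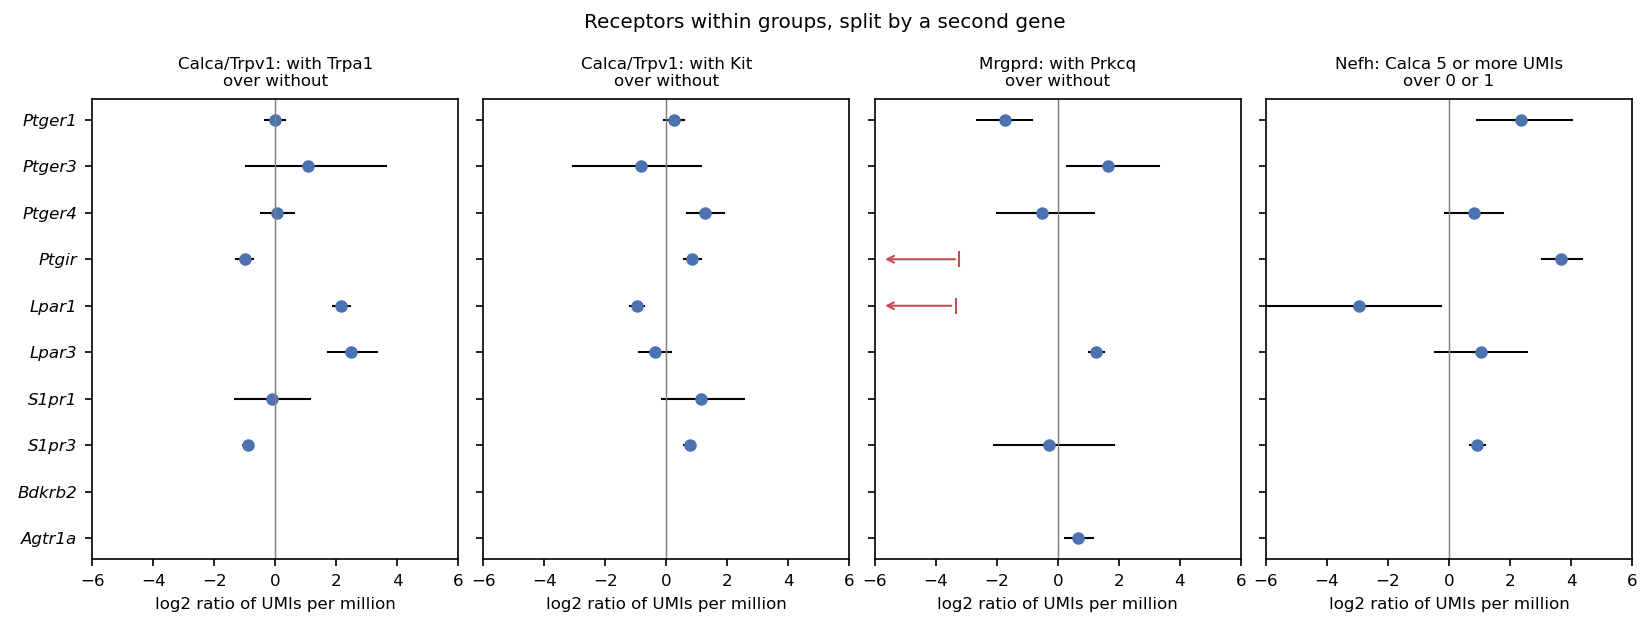
Log2 ratio of each receptor's level (x axis, CPM) between subsets of a group split by a second gene, with 95% intervals from the exact binomial; receptors with under 10 UMIs in both subsets together are not drawn, and an arrow marks a receptor with no UMI in the first subset, from the upper end of its interval; the axis cuts off the lower end of the Lpar1 interval in Nefh neurons. Lpar1 and Lpar3 lie to the right with Trpa1, Ptgir and S1pr3 to the left, and in Mrgprd neurons Ptgir and Lpar1 were seen only in cells without Prkcq.

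Mrgprd neurons were split by Prkcq, a protein kinase C gene, into 228 with a UMI and 151 without. Those with Prkcq were deeper, with a median of 7854 against 3711 UMIs. Lpar3 was at 517 CPM (489 to 547) with Prkcq and at 214 without (log2 ratio 1.27, 1.04 to 1.51). Agtr1a was at 94 against 58.5 CPM (0.68, 0.23 to 1.17), but with cells thinned to 1000 UMIs the shares with a UMI were 9.65% and 9.93%. Its intervals held 0 in splits of the same group by Otoa (−0.08 to 0.63), Mrgprb5 (−0.56 to 0.14) and Mrgpra1 (−0.20 to 0.50). Ptger3 was at 19.4 against 6.22 CPM (1.64, 0.32 to 3.33), the latter from 5 UMIs, and its intervals held 0 in the same 3 splits. Lpar3 was higher with Otoa (0.66, 0.50 to 0.82) and with Mrgprb5 (0.22, 0.07 to 0.37) and lower with Mrgpra1 (−0.23, −0.38 to −0.07). Cells with Otoa, Mrgprb5 or Mrgpra1 were also deeper, with medians of 9284, 10216 and 9299 UMIs against 4242, 4394 and 4846. Ptger1 was lower with Prkcq, at 8.91 against 29.9 CPM (−1.74, −2.65 to −0.85). None of the 13 Ptgir and 14 Lpar1 UMIs of Mrgprd neurons was in the 228 cells with Prkcq, which allows shares of up to 1.32%. Their levels without Prkcq, 16.2 and 17.4 CPM, were 13.3-fold and 14.3-fold the level that 3 counts over the 228 cells would give. These folds are not lower bounds, and the upper ends of the exact log2 intervals were −3.23 and −3.35. The cells without Prkcq also had more Calca (1567 against 346 CPM), more Trpv1 (113 against 19.9) and more Mrgpra3 (112 against 6.48). Calca was seen in 58.9% of them against 75.9% with Prkcq, and Trpv1 in 15.9% against 16.2%. These shares were not matched for depth, and the cells without Prkcq were shallower. Their 90 UMIs of Mrgpra3 were in 7 cells. The part of these other markers in the difference was not tested.

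Nefh neurons divided by Calca as well. In the 89 with 5 UMIs or more of Calca, Ptgir was at 161 CPM (136 to 189) and in the 322 with 0 or 1 it was at 12.6, a log2 ratio of 3.68 (3.05 to 4.36). S1pr3 was at 298 against 156 CPM (0.93, 0.69 to 1.18) and Ptger1 at 16.2 against 3.16 (2.36, 0.92 to 4.02). The median depths of these subsets were 6021 and 3645 UMIs. The group rule left out neurons with a UMI of Trpv1, but neurons whose Trpv1 went undetected can be among the 89. The part of such neurons was not tested. In the 133 Nefh neurons with a UMI of Ntrk2, the receptor of brain-derived neurotrophic factor, Ptgir was at 2.98 CPM against 94 in the 317 without (−4.98, −6.87 to −3.60), while S1pr3 was at 130 against 246 CPM. Calca was at 166 CPM with Ntrk2 and at 2867 without, and its part in this was not tested. The median depths with and without Ntrk2 were 5147 and 3613 UMIs. Among Trpm8 neurons, S1pr3 was at 9.25 CPM in the 172 with 5 or more UMIs of Nefh and at 42.3 in the 72 with fewer (−2.19, −3.34 to −0.99). These were 17 UMIs in 9 cells and 12 UMIs in 5 cells, and the thinned shares were 2.33% and 2.78%, so a few cells carry the difference.

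Some single cells held several receptors: of 3855 neurons, 570 had UMIs of 2 and 340 of 3 or more. Of the 196 neurons with Agtr1a, 147 (75%) also had Lpar3, which is 28.4% of the 517 neurons with Lpar3. Within Mrgprd neurons 86% of those with Agtr1a had Lpar3 and 67.6% of those without, and the cells with Agtr1a were deeper (median 9346 against 4162 UMIs). Ptgir and S1pr3 were found together in 316 neurons. In Calca/Trpv1 neurons 73.7% of those with Ptgir had S1pr3 against 42.2% of those without, with medians of 6280 and 3016 UMIs. Lpar1 and S1pr3 showed the opposite order in that group: 43.6% of neurons with Lpar1 had S1pr3 and 55.2% of those without, although those with Lpar1 were deeper (5076 against 3123). Of the 86 Calca/Trpv1 neurons with Lpar3, 72.1% had Lpar1, against 29.3% of those without Lpar3 (medians 6067 and 3441). Since a deeper cell shows more of every gene, the pairs that go with depth are descriptions only.

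In cells other than neurons the receptors were rare, apart from Lpar1 and S1pr1. Barcodes outside the neurons were put in classes by having at least 3 markers of a cell type. Among 561 erythroid-like barcodes, the share with a UMI ran from 0% for Ptger1 and Bdkrb2 to 1.6% for Agtr1a, and in 340 pituitary-like barcodes from 0% for Ptger3, Ptgir and Bdkrb2 to 2.65% for Agtr1a. Lpar1 was the exception in 206 oligodendrocyte-like barcodes, of which 55.3% (48.3 to 62.3) had a UMI, at 445 CPM (388 to 509), above the Nppb and Calca/Trpv1 neurons. S1pr1 was seen in 32.8% (24.3 to 42.1) of 116 endothelial-like barcodes at 268 CPM (204 to 345) and in 12.7% (5.96 to 22.7) of 71 precursor B-like barcodes at 66.6 CPM (31.9 to 122). Both are known sites of these genes, in myelinating cells and in vessels and lymphocytes. The median depths were 1860, 1500 and 1477 UMIs, against 3014 in neurons.

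**Figure D3:**
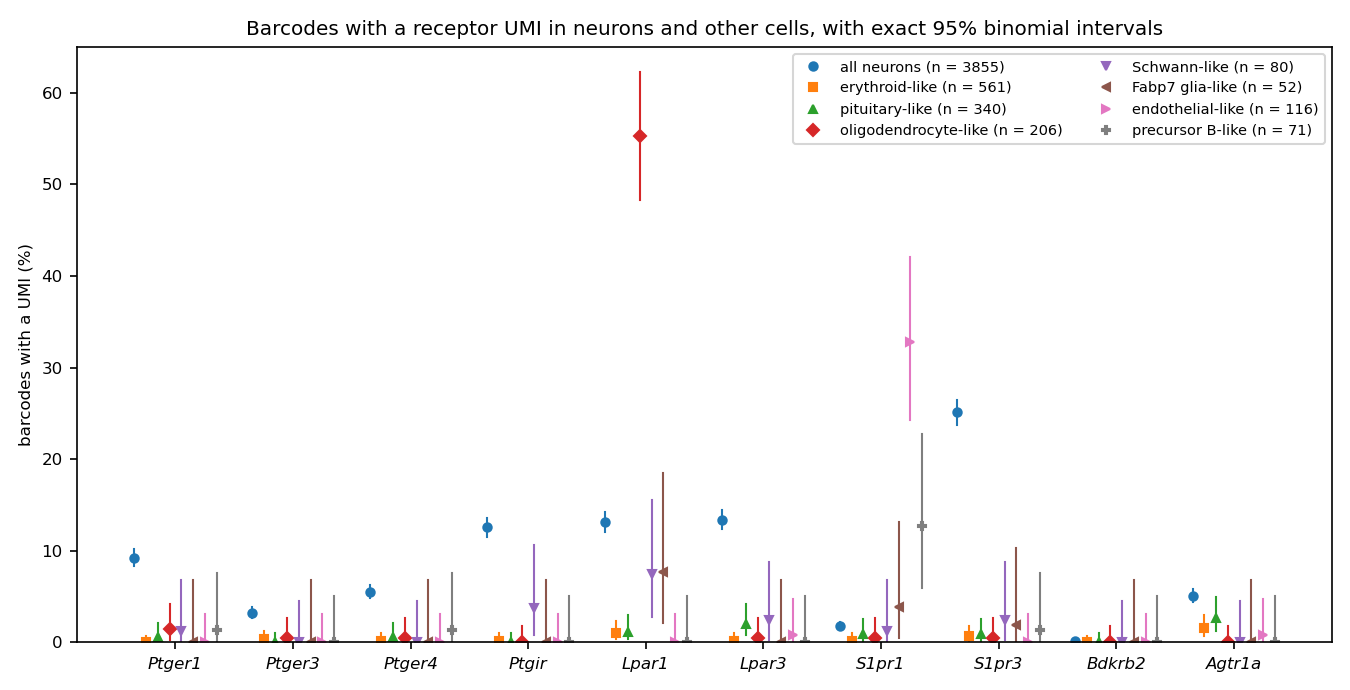
Share of barcodes with at least 1 UMI of each receptor (y axis, percent) in neurons and in 7 classes of other cells (colours and symbols, n in the legend), with exact 95% binomial intervals. Lpar1 reaches 55.3% in oligodendrocyte-like and S1pr1 32.8% in endothelial-like barcodes, and erythroid-like barcodes stay at or below 1.6% for every receptor.

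Other receptors for the same kinds of ligand were read from a list of 26 that includes the 10. Of these, 25 are in the table, 14 had 100 UMIs or more in neurons and 11 were at least 3 times higher in a group, where 10.4% of all genes were. Of the 11, Ptgfr, S1pr2, Ptger3 and Agtr1a had fewer than 100 UMIs outside their highest group and passed only through it, so the count and the medians over the 14 are descriptions. Beside the receptors above, these were Ptgdr, the prostaglandin D2 receptor, in Mrgprd neurons (112 CPM, 366 of 669 UMIs), S1pr2 in Mrgprd neurons (15.6 CPM), the prostaglandin F receptor Ptgfr in Nefh neurons (23 CPM, 78 of 107 UMIs) and Agtr1b in Mrgpra3 neurons (34 CPM, 11 UMIs). The median log2 ratio over the 14 was −3.58 in Trpm8 neurons and −2.53 in Cd34 neurons, against −0.12 and −0.04 over all genes tested. It was −2.0 in Nppb, −1.85 in Mrgpra3, −1.45 in Nefh, −1.28 in Mrgprd and −0.52 in Calca/Trpv1 neurons, against −0.11, −0.13, −0.09, −0.12 and −0.01. UMIs in Mrgpra3 and Nppb neurons were too few for lower calls, so the medians there rest on few counts. Genes without a UMI in a group, such as Ptgfr in both, entered as the lowest values. The medians over the 14 were below 0 in every group and are not read as loss of these receptors.

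Genes that make, break down or export the ligands were mostly sparse. Of 28 listed, 26 are in the table and 10 had 100 UMIs or more. At least 3 times higher in a group, where 10.4% of all genes were, and close to that limit, were Ppap2c, a lipid phosphate phosphatase, in Cd34 neurons (51.4 CPM, 3.09-fold) and Spns2, a sphingosine-1-phosphate exporter, in Mrgprd neurons (20.8 CPM, 3.01-fold). Klk1, a kallikrein, had no UMI in neurons.

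The signalling genes below the receptors had 37 of 39 tested and 14 at least 3 times higher in a group, where 10.4% of all genes were. Trpv1 is part of the group rules and Prkcq, Gna14 and Trpa1 are among the markers the study picked on these cells, so this count is no independent evidence. Mrgprd neurons had 8, where 2.16% of all genes were: Gna14, a Gq-class alpha subunit, at 271 CPM (6.04-fold), the phospholipase Plcb3 at 355 (5.6-fold), the protein kinase C genes Prkca at 759 (8.35-fold), Prkcd at 750 (4.65-fold) and Prkcq at 247 (42.4-fold), the receptor kinase gene Adrbk1 at 250 (3.63-fold), and the sodium channels Scn10a at 1098 (4.2-fold) and Scn11a at 1142 (5.03-fold). Gna14 and Prkcd also reached 3 times in Nppb neurons, at 313 and 754 CPM, and Prkcd in Mrgpra3 neurons, at 783. In Calca/Trpv1 neurons these were the adenylyl cyclase Adcy3 at 33.1 CPM (3.51-fold), and Trpv1, which the rule used, and Trpa1 at 400 CPM (11-fold). Nefh neurons had Adcy1 at 41.5 and the potassium channel Kcnq3 at 63.6 CPM, and Trpm8 neurons the kinase anchor Akap5 at 66.9 CPM. In Trpm8 neurons 13 were at least 3 times lower (8.02% of all genes), in Cd34 neurons 10 (6.12%) and in Nefh neurons 10 (3.98%). In Mrgprd neurons 6 were (9.82%) and in Calca/Trpv1 neurons 4 (4.72%). Over the 37 the median log2 ratio was 0.50 in Mrgprd, 0.01 in Calca/Trpv1 and −1.05 in Trpm8 neurons. Over all genes tested these were −0.12, −0.01 and −0.12. In Mrgpra3, Nppb, Nefh and Cd34 neurons it was 0.19, −0.18, −0.47 and −0.78, against −0.13, −0.11, −0.09 and −0.04.

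**Figure D4:**
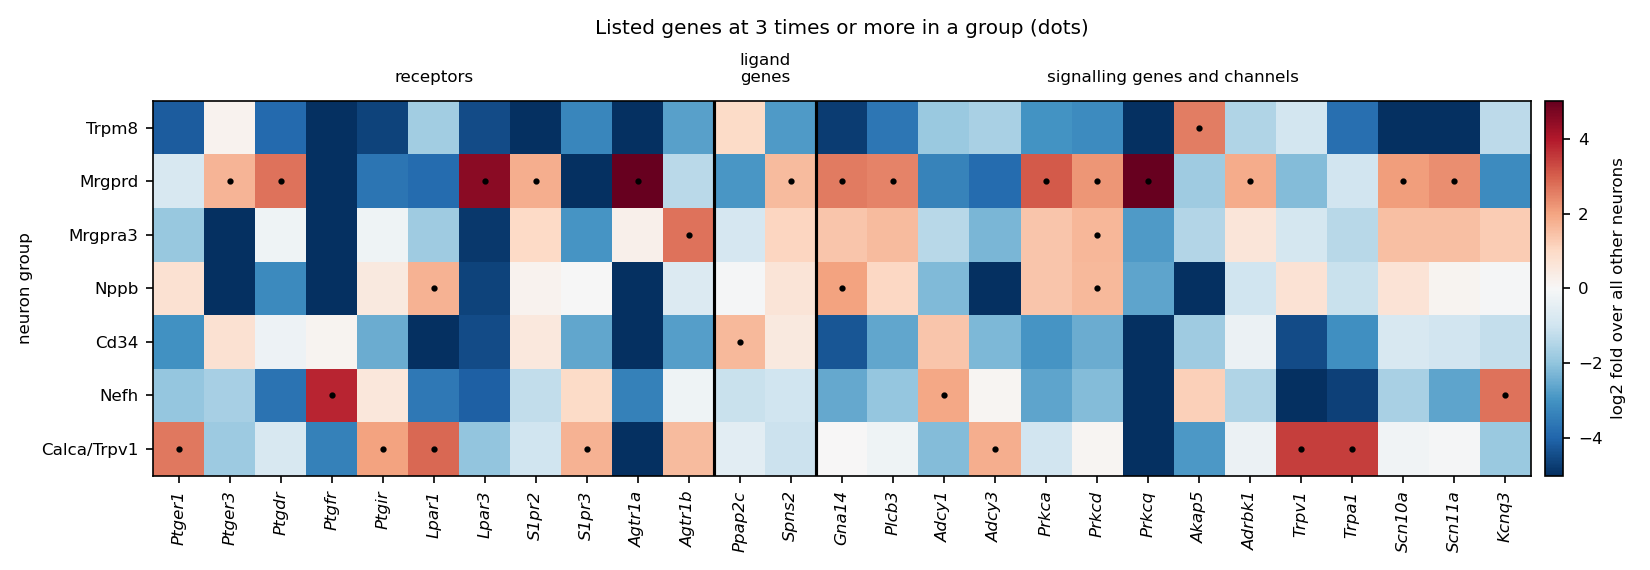
Log2 fold of each group over all other neurons (colour) for the listed receptors, ligand genes and signalling genes that were at least 3 times higher in a group (columns), by neuron group (rows); dots mark 3 times or more, and the colours end at −5 and 5, with genes that had no UMI in a group in the darkest blue. Mrgprd neurons hold 8 of the dots in the signalling block and 5 in the receptor block, and Calca/Trpv1 neurons hold 4 in the receptor block.

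The genes whose counts across single neurons were most like each receptor's were named by Pearson's r of log2(1 + UMIs per 10000) over 2631 neurons with 2000 UMIs or more, among 10264 genes. All points share their cell's depth, so r is a description. For Lpar3 they were Mrgprd (0.711), Prkcq (0.624) and Tmem233 (0.596), and for Agtr1a Mrgprd (0.541), Ly86 (0.445) and Lpar3 (0.437). For Lpar1 they were Trpa1 (0.463), Gfra3 (0.404) and Gpx3 (0.375). S1pr3 was nearest to Calca (0.455), Scg2 (0.440) and S100a13 (0.399), and Ptgir to Calca (0.384), S100a13 (0.348) and S1pr3 (0.341). S1pr1 was nearest to Osmr (0.359), Npy2r (0.308) and Mical1 (0.226), the first being a cytokine receptor found at 504 CPM in Nppb neurons. Ptger1 was nearest to Calca (0.321), Gfra3 (0.300) and Gpx3 (0.299). For Ptger4 (Cyp1b1 0.201, Dbpht2 0.187, Calca 0.177) and Ptger3 (Ppp1r1a 0.150, Rgs10 0.147, N28178 0.141) r was weak and is no finding, and Bdkrb2 had too few cells.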

How the data were processed

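The authors sequenced 9 Drop-seq runs of dissociated trigeminal ganglia and deposited 1 table of UMI counts per gene and barcode. Per the labels, mm10 was the genome build, and the submitters' processing notes name bcl2fastq 2.17, STAR 2.5.3a and Seurat 1.4.0.16; use of strand in counting is not given in the sources used here. Each barcode held at least 1000 UMIs, and 6 barcode sequences occurred 2 times.

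Python 3.11.15 with numpy 2.4.6, pandas 2.3.3 and scipy 1.17.1 was used. UMIs were summed over the cells of a group and divided by the group's total UMIs (CPM). With 1 pooled sample no test was made. A gene was called where its CPM was at least 3 times higher or lower than in all other neurons, among genes with 100 UMIs or more in neurons. The receptors and gene lists were chosen with earlier results of these data known, and the minimum of 3 markers for other cell classes was set after the files were seen. No doublet caller was run; barcodes above 7500 genes (40) were left out of neurons and classes, and mixed barcodes can remain. Named genes were the receptors, the listed genes that were 3 times higher in a group or had no UMI, and the 3 genes of highest r. The ratio, interval and thinning steps were tested on simulated data. Alternatives were thinned cells, stricter neuron and group rules, deeper cells, cells without glial or with few mitochondrial UMIs, a mean over cells and other folds. Gene positions are from GENCODE on GRCm38, promoters from RefSeq on GRCm38.p6.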

Additional observations from a re-analysis of the deposited data

How the results depend on the processing

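The count of receptors that were 3 times higher in a group, 7 of 8, was 5 to 7 under the alternatives that kept this limit, 8 with a limit of 2 times and 4 with a limit of 5 times. The share of neurons with a UMI of any receptor, 53.2%, changed with these choices: it was 27.4% with each cell thinned to 1000 UMIs, 57% with at least 5 of the 6 neuronal genes, 62% in neurons with 2000 UMIs or more and 28.2% when 2 UMIs of the same receptor were needed. Of 89 recomputed ratios of a receptor's leading group to other neurons, none changed direction, 69 stayed within the counting interval of the reported value and 20 left it. The Lpar3 ratio left it most often, in 6 of 9 alternatives, with a log2 range of 3.25 to 4.77. Its counting interval was narrow (4.36 to 4.70), and Ptger3 (1.39 to 3.61) and Agtr1a (3.33 to 5.37) ranged more widely. The low ends of Lpar3 and Agtr1a came from the setting that counted neurons of more than 1 rule among the other neurons. Leaving out neurons with 3 or more oligodendrocyte markers, an alternative chosen after seeing the data, left 7 receptors at 3 times or more and gave a share of 53%. No paired analysis was possible because the barcodes name no run, and for the same reason no run could be left out. Depth limits Bdkrb2, S1pr1 outside Nppb neurons and every value in the 49 Mrgpra3 neurons.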
